A study of Mus musculus with 3 samples.

Results

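The genes described here encode 10 integrin subunits of T cells: Itgae, Itgav, Itgb8, Itgb1, Itga4, Itgb7, Itgal, Itgb2, Itga6 and Itgb3. They were chosen by name, as subunits that T cells are known to use, but with earlier results of these data known. The signal of a gene was taken from all H3K36me3 peaks whose midpoint lay between its annotated start and end. All 10 genes carried at least 1 peak, as did 10037 of all 21951 protein-coding genes, and the 10 genes together held 220 of 120910 peaks. Chromatin immunoprecipitation sequencing (ChIP-seq) for H3K36me3 was performed on Treg cells, sorted as CD3+CD4+Foxp3-YFP+ cells from 2 tissues, spleen and large intestine, of adult C57BL/6 mice that carry Foxp3Cre-YFP, an allele in which the Foxp3 gene drives a Cre recombinase fused to a yellow fluorescent protein. By their labelled genotype the mice carried no altered Setd2 allele, and they were at steady state. Each tissue gave 1 library from the pooled cells of 7 male and 7 female mice, and with 2 single libraries no spread between replicates could be measured and no test was made. The input library of the study was not analysed here.

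Integrins are cell-surface receptors made of 1 alpha and 1 beta subunit. They bind adhesion molecules on other cells or proteins of the extracellular matrix, and in T cells they govern arrest on vessel walls, entry into tissues and retention there. Beta subunits are shared. Itgb7 pairs with Itga4 in the receptor for the gut vessel addressin MAdCAM-1 and with Itgae in the receptor for epithelial E-cadherin. Itgb1 pairs with Itga4, Itga6 and many others. The mark H3K36me3 (histone H3 with 3 methyl groups on a lysine of its tail) is deposited by Setd2 as RNA polymerase II passes through a gene, so that it lies over the bodies of transcribed genes and usually rises toward their 3' ends. It is a mark on chromatin and not a measure of mRNA or of protein on the cell surface.

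Among these subunits, H3K36me3 was higher in the large intestine at Itgae (1.79-fold), Itgb3 (1.57-fold) and Itgav (1.30-fold), and higher in the spleen at Itgb1 (2.24-fold), Itga6 (1.55-fold) and Itgb8 (1.47-fold). Differences at Itga4 and Itgb2 were small, 1.16-fold and 1.15-fold toward the spleen, and at Itgal and Itgb7 the counting interval of the ratio held 0, though it lay on the spleen side of 0 for both once GC content was corrected for. With that correction the interval of Itgb8 held 0, and the ratio of Itga4 turned to the large intestine side with an interval that held 0. The ratio used throughout is the log2 of the large intestine signal over the spleen signal, summed over the peaks of a gene with 0.5 RPKM added and with the libraries scaled to equal totals over all peaks. RPKM is read coverage per kilobase scaled to sequencing depth, and levels in RPKM are given as deposited, before that scaling. Each ratio carries an approximate 95% counting interval, in which 1 read was taken to cover 200 bp, and which holds counting error only, not the variation between mice or preparations.

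By this measure 3 of 10 subunits had an interval above 0, against 18.5% of the 9456 protein-coding genes tested, those that reached 20 RPKM in the sum of both libraries. An interval below 0 was found for 5 of 10 subunits, against 15.9% of those genes. Intervals narrow as signal grows, and 8 of 10 subunits reached 200 RPKM over both libraries, against 4165 of the 9456 genes. The shares with an interval off 0 are therefore not at equal precision. No subunit was over 2-fold higher in the large intestine (3.21% of all tested genes) and 1, Itgb1, was over 2-fold higher in the spleen (1.81%). The median log2 ratio of the 10 subunits was −0.15 and that of all tested genes was 0.00, with quartiles at −0.20 and 0.23. The subunits spread to both sides of those quartiles, 3 above and 5 below, and did not share a direction.

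**Figure D1:**
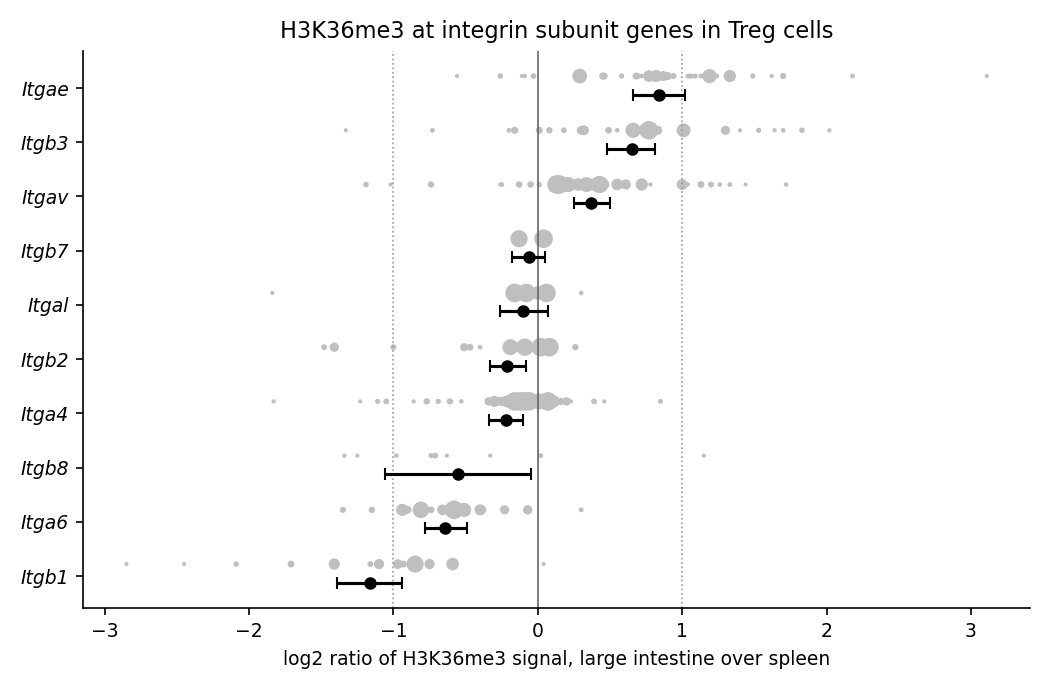
Log2 ratio of H3K36me3 signal, large intestine over spleen, for 10 integrin subunit genes. Black points are the ratios of the summed peaks with approximate 95% counting intervals, grey points are single peaks with an area that grows with peak length within limits, and dotted lines mark 2-fold. Itgae, Itgb3 and Itgav lie to the right of 0 (0.84, 0.65 and 0.37), and Itgb1 lies past the left 2-fold line (−1.16).

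The large intestine library was the deeper of the pair. Depth was inferred from the smallest step between values, at 29600000 mapped reads in the spleen and 38100000 in the large intestine. The median peak had 10.4 RPKM and 10.5 RPKM, respectively. The ratio of a peak moved with its base composition across all peaks: the median log2 ratio was −0.49 in the lowest of 20 bins of GC content and 0.40 in the highest. The ratios of the T cell subunits and the medians of the lists were therefore also computed after dividing out the median of each GC bin. The corrected value is given beside each T cell subunit whose call it changes. For other single genes, including those named from the lists and the neighbours, no corrected value is given, so their intervals hold without the GC correction only. All 7 T cell and Treg markers carried peaks, with summed levels of 1847 RPKM in the spleen and 1535 RPKM in the large intestine. Of that sum, Ikzf2 with 115 peaks gave 1205 and 851 RPKM, and such sums grow with the number of peaks, so they are not levels that can be compared between lists. Among markers of other cells, 3 of 6 intestinal epithelium genes had a peak (55.1 and 93.8 RPKM summed), as did 4 B cell genes (72.6 and 53.7 RPKM), 2 of 6 myeloid genes (29.7 and 31.3 RPKM), 1 of 2 CD8 T cell genes (21.1 and 9.46 RPKM) and 1 of 3 stromal genes (33.6 and 67.1 RPKM). The markers Krt8, Krt18, Krt20, Ms4a1, Lyz2, Adgre1, Cd14, Mpeg1, Cd8a, Col1a2 and Pdgfra had no peak. Others of the same lists had peaks, among them Epcam, Vil1, Lgals4, Cd79a, Csf1r, Cd8b1 and Col1a1. Over all 21951 protein-coding genes, 10037 had a peak. The epithelial and stromal sums were higher in the large intestine, as were Itgae, Itgb3 and Itgav, with Epcam at 25.3 and 47.2 RPKM and Col1a1 at 33.6 and 67.1 RPKM, and their part in the ratios of these genes was not tested.

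The peaks of these genes lay mostly over introns. By the midpoint of the peak, 194 of 220 peaks were in introns, 13 in coding exons, 12 in 3' UTRs and 1 outside the principal transcript, although most peaks of at least 1 kb also hold exon bases. To show the chromatin that carries the difference, a stretch of 240 bp is printed below for each subunit with a log2 ratio of at least 0.5 in size, an interval off 0 and a peak of at least 1 kb. Each stretch surrounds a coding exon inside the strongest peak that holds a whole coding exon of suitable length, in mm10 coordinates on the plus strand, which is the coding strand of all 4 genes. Capitals mark the coding exon and lower case the intron bases on either side. For Itgae this is exon 14 at chr11:73118445-73118684, in a peak with 8.68 RPKM in the spleen and 23.3 RPKM in the large intestine. For Itgb3 it is exon 5 at chr11:104637013-104637252, in the gene's second strongest peak, with 15.2 and 24.7 RPKM. For Itgb1 it is exon 7 at chr8:128716079-128716318, in a peak with 19.7 and 5.89 RPKM. For Itga6 it is exon 14 at chr2:71840499-71840738, in a peak with 22.5 and 13.1 RPKM. The values belong to the whole peak and not to the printed stretch alone.
Itgae exon 14: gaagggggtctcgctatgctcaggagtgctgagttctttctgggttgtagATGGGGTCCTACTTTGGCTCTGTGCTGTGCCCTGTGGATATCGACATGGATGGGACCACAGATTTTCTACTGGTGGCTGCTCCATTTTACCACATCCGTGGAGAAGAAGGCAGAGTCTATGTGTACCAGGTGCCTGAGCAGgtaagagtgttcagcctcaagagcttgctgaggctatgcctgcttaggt
Itgb3 exon 5: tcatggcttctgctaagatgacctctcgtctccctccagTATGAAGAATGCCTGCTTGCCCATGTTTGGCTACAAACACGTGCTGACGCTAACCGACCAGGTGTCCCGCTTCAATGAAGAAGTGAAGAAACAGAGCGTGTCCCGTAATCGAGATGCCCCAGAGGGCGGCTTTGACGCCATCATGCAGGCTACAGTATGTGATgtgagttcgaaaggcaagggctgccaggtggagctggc
Itgb1 exon 7: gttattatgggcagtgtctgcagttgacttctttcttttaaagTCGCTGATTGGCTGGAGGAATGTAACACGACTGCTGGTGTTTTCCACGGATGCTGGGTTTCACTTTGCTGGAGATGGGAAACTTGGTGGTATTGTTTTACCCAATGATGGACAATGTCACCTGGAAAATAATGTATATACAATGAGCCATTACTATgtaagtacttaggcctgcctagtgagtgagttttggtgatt
Itga6 exon 14: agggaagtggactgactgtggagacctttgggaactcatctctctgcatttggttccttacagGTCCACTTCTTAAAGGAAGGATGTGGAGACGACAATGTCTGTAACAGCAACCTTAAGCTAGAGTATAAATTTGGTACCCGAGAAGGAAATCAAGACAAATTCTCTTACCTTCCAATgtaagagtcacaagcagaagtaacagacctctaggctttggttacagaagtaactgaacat
The GC content of the stretches was 52.5% in Itgae and 54.2% in Itgb3, the genes with more signal in the large intestine, and 42.1% in Itgb1 and 42.5% in Itga6, the genes with more signal in the spleen. After the GC correction the log2 ratios of the 4 genes were 0.72, 0.55, −0.87 and −0.58, each still on its own side of 0.

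Itgae encodes the alpha E subunit, CD103, which with Itgb7 forms the E-cadherin receptor by which T cells are held at epithelium. Its gene (ENSMUSG00000005947.11, chr11:73090583-73147446, plus strand) held 33 peaks with a sum of 250 RPKM in the spleen and 464 RPKM in the large intestine, a log2 ratio of 0.84 (0.66 to 1.02). This was higher than the ratio of 95.2% of all tested genes. The large intestine was higher in 28 of 33 peaks, against 48.6% of all peaks in coding genes, and in 6 of 6 peaks of at least 1 kb, against 51.1% of all such peaks. Short peaks hold few reads, and over the 10 genes the interval of the single peak left out 0 in 30 of 133 peaks under 1 kb and in 38 of 87 longer ones. In Itgae it lay above 0 for 16 of 33 peaks and below 0 for none. The share of all peaks in coding genes with an interval off 0 was not computed, so such counts have no background beside them. The strongest peak, 2093 bp around the exon 14 printed above, had a log2 ratio of 1.33 (0.91 to 1.74), while the longest, 2999 bp centred in intron 24, had 9.25 RPKM in the spleen and 11.8 RPKM in the large intestine and an interval that held 0 (0.29, −0.08 to 0.67).

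To follow the mark along a gene, its principal transcript was divided into 5 equal segments, numbered from the start. The level of a segment is the mean over all its bases, with those outside peaks counted as 0. Along Itgae the log2 ratio was highest in segments 2 and 3, though the intervals of segments 2 to 5 overlapped. In segment 2 the mean level was 3.28 RPKM in the spleen and 7.19 RPKM in the large intestine (log2 ratio 1.05, 0.74 to 1.36), and in segment 3 it was 7.09 and 14.8 RPKM (0.98, 0.77 to 1.19). The log2 ratio was 0.64 (0.40 to 0.89) in segment 4 and 0.66 (0.26 to 1.05) in segment 5. Segment 1 held 1 short peak with more signal in the spleen, 10.9 against 7.43 RPKM, and an interval that held 0. In both libraries the level was highest in segment 3 and lower toward the 3' end. The small gene Haspin lies within an Itgae intron on the other strand, and 3 of the 33 peaks had their midpoint inside it. When each peak went instead to the closest transcript start of any gene, Itgae had 14 peaks and its log2 ratio was 0.29 (0.09 to 0.50).

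Itgb7, the partner of both Itgae and Itga4, had nearly the same summed signal in the libraries. The gene (ENSMUSG00000001281.10, chr15:102215995-102231944, minus strand) had 3 peaks, all of at least 1 kb, with a sum of 74.0 RPKM in the spleen and 73.1 RPKM in the large intestine. Its log2 ratio was −0.06 (−0.18 to 0.05), but the interval lay below 0 with the GC correction (−0.18, −0.30 to −0.06) and when peaks went to the closest transcript start (−0.19, −0.30 to −0.08). From the start of the gene, the peaks had 13.9, 30.9 and 29.2 RPKM in the spleen and 13.0, 29.1 and 31.0 RPKM in the large intestine. The level thus rose after the first peak in both libraries, and no segment of the gene had an interval off 0. The last peak, which was also the strongest, ran 4.32 kb past the 3' end of Itgb7, over the 3' part of the convergent neighbour gene Zfp740, so its signal cannot be given to Itgb7 alone. The ratio of Itgae exceeded that of Itgb7 by 0.91 on the log2 scale (0.69 to 1.12).

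Itga4 encodes the alpha 4 subunit, which binds VCAM-1 as a partner of Itgb1 and MAdCAM-1 as a partner of Itgb7. The gene (ENSMUSG00000027009.18, chr2:79255426-79333123, plus strand) had 40 peaks with a sum of 486 RPKM in the spleen and 431 RPKM in the large intestine, a log2 ratio of −0.22 (−0.34 to −0.10). The spleen was higher in 28 of 40 peaks and in 13 of 18 peaks of at least 1 kb. The strongest peak had 20.8 and 21.6 RPKM (log2 ratio 0.01, −0.23 to 0.26) and the longest, of 6391 bp, had 12.5 and 12.3 RPKM (−0.06, −0.30 to 0.17). The difference was largest near the start, though the intervals of the segments overlapped. Segment 1 had 3.30 RPKM in the spleen and 2.64 RPKM in the large intestine (−0.40, −0.73 to −0.08), and segment 5 had 13.2 and 13.3 RPKM (−0.06, −0.22 to 0.09). With the GC correction the ratio of Itga4 was 0.11 (−0.01 to 0.23), so its direction turned. The ratios of Itga4 and Itgb7 differed by −0.16, with an interval from −0.32 to 0.01.

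Itgb1 encodes the beta 1 subunit, which T cells use in their receptors for VCAM-1, fibronectin, collagen and laminin. It had the largest difference of the 10 subunits. The gene (ENSMUSG00000025809.15, chr8:128685654-128733200, plus strand) had 17 peaks with a sum of 220 RPKM in the spleen and 101 RPKM in the large intestine, a log2 ratio of −1.16 (−1.39 to −0.94), and only 1.17% of all tested genes had a lower ratio. The spleen was higher in 16 of 17 peaks and in 8 of 8 peaks of at least 1 kb. An interval below 0 was found for 14 of 17 peaks, a count for which the share over all peaks was not computed. The strongest peak, of 644 bp, was 19.7 RPKM in the spleen and 5.89 RPKM in the large intestine (−1.71, −2.53 to −0.89). The longest, of 4055 bp, had 13.9 and 7.76 RPKM (−0.85, −1.17 to −0.53).

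The peaks of Itgb1 began 20.6 kb after the transcript start, and segments 1 and 2 held none. In segment 3 the level was 8.43 RPKM in the spleen and 3.84 RPKM in the large intestine (−1.22, −1.52 to −0.91), in segment 4 it was 11.1 and 5.97 RPKM (−0.98, −1.23 to −0.73), and in segment 5 it was 7.00 and 3.85 RPKM (−0.95, −1.26 to −0.63). The spleen was thus higher in each of the 3 marked segments, with overlapping intervals. The peaks of Itgb1 had a median GC content of 39.5%, against 46.5% for all peaks. With the GC correction the ratio was −0.87 (−1.09 to −0.65), and with peaks of at least 1 kb alone it was −0.95 (−1.14 to −0.75); in both cases it was below 2-fold but kept its side of 0.

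Itga6 encodes the alpha 6 subunit, which forms a laminin receptor with Itgb1. The gene (ENSMUSG00000027111.15, chr2:71745616-71858416, plus strand) had 23 peaks with a sum of 329 RPKM in the spleen and 219 RPKM in the large intestine, a log2 ratio of −0.64 (−0.78 to −0.49), and 4.75% of tested genes had a lower one. The spleen was higher in 22 of 23 peaks and in 13 of 13 peaks of at least 1 kb. The strongest peak had 22.5 and 13.1 RPKM (−0.81, −1.07 to −0.54) and the longest, of 5191 bp, had 20.3 and 13.8 RPKM (−0.58, −0.81 to −0.36). All but 1 of the peaks thus leaned the same way, and the exception was short, 325 bp, with 8.93 and 11.5 RPKM and an interval that held 0. The level was highest in segment 5 in both libraries, 13.9 RPKM in the spleen and 9.01 RPKM in the large intestine, and segment 2 held no peak. Itga6 and Itgb1 both had more signal in the spleen, but the ratio of Itgb1 was the lower, by 0.52 on the log2 scale (0.25 to 0.79). The ratio of Itga4, which also pairs with Itgb1, exceeded that of Itgb1 by 0.94 (0.68 to 1.20), and that of Itgav, a further alpha partner, by 1.53 (1.28 to 1.79).

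**Figure D2:**
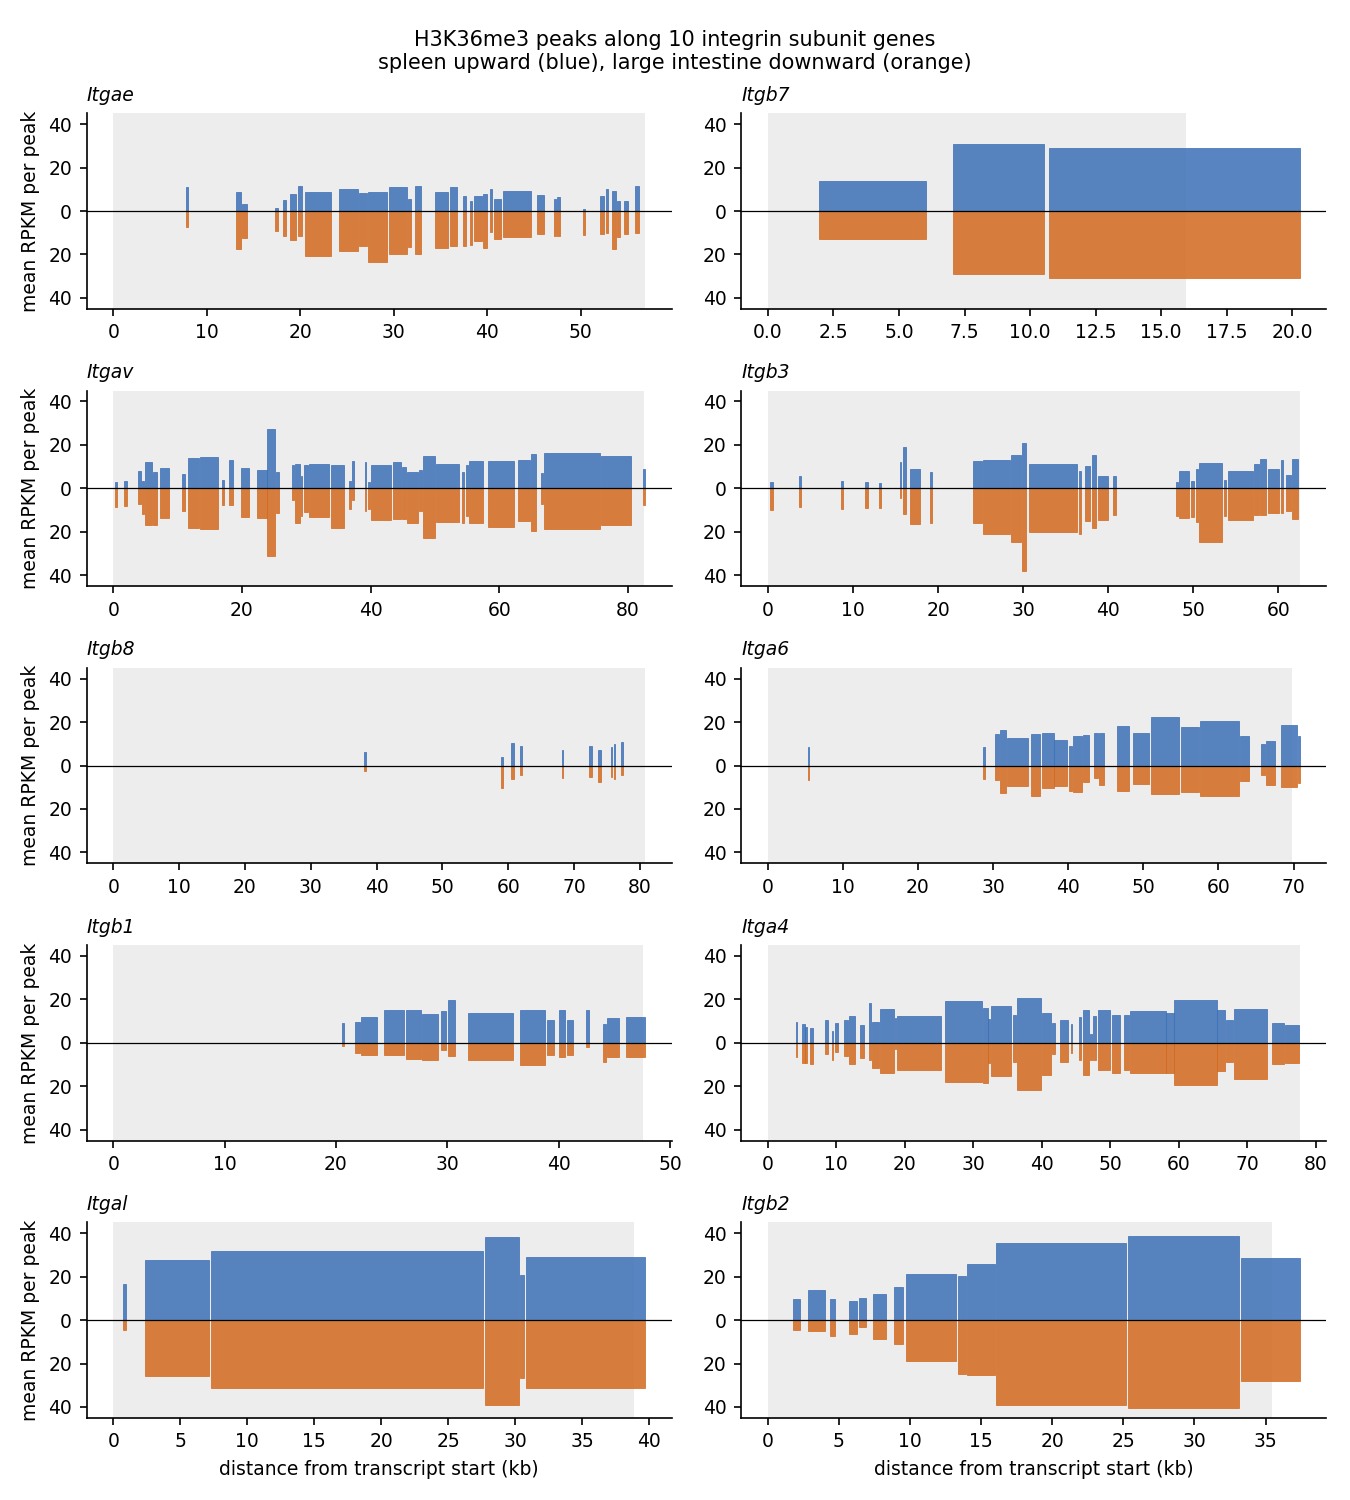
H3K36me3 peaks along 10 integrin subunit genes, with distance from the transcript start in kb on the x axis and mean RPKM per peak on the y axis, spleen upward in blue and large intestine downward in orange, as deposited. Grey marks the principal transcript. Itgb1 peaks begin at 20.6 kb and reach 19.7 RPKM in the spleen, Itgb8 has 10 short peaks, and Itgal and Itgb2 are covered over most of their length.

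Itgav, Itgb8 and Itgb3 encode the subunits of the alpha v integrins. These bind matrix proteins with the RGD motif, among them the latent form of TGF-beta, and alpha v beta 8 on Treg cells is known to release active TGF-beta from it. Itgav (ENSMUSG00000027087.11, chr2:83724397-83806916, plus strand) had 43 peaks with a sum of 436 RPKM in the spleen and 584 RPKM in the large intestine, a log2 ratio of 0.37 (0.25 to 0.50), higher than in 84.0% of tested genes. The large intestine was higher in 36 of 43 peaks and in 19 of 19 peaks of at least 1 kb. The strongest peak, of 1111 bp, had 27.2 and 31.4 RPKM (0.16, −0.22 to 0.54) and the longest, of 8628 bp, had 16.4 and 18.8 RPKM (0.15, −0.03 to 0.32). The difference was therefore spread over many peaks rather than carried by these 2. It was 0.46 (0.28 to 0.64) in segment 3, at 7.83 and 11.4 RPKM, and 0.11 (−0.04 to 0.25) in segment 5, at 13.2 and 15.0 RPKM. The annotation places the noncoding gene Gm13684 and the pseudogene Dnmt3l-ps1 within Itgav, and 13 of its peaks had their midpoint in them; without these peaks the ratio was 0.42. With the GC correction it was 0.48 (0.36 to 0.60).

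Itgb3, the beta partner of Itgav in the vitronectin receptor, had the second highest ratio. The gene (ENSMUSG00000020689.4, chr11:104608000-104670476, plus strand) had 32 peaks with a sum of 294 RPKM in the spleen and 475 RPKM in the large intestine, a log2 ratio of 0.65 (0.48 to 0.81), higher than in 92.4% of tested genes. The large intestine was higher in 28 of 32 peaks and in 10 of 10 peaks of at least 1 kb. An interval above 0 was found for 12 peaks and one below 0 for none, again without a share over all peaks. The strongest peak, of 535 bp in intron 6, had 21.0 and 38.0 RPKM (0.79, 0.22 to 1.37), and the longest, of 5596 bp, had 11.1 and 19.9 RPKM (0.77, 0.53 to 1.01). Peaks began 0.404 kb from the start, and the large intestine was higher in all 5 segments, by a log2 ratio from 0.37 (0.01 to 0.73) in segment 2 to 1.33 (0.42 to 2.24) in segment 1, where the levels were only 0.336 and 0.896 RPKM. Segment 3 had the highest level in both libraries, with 19.1 RPKM in the large intestine (0.71, 0.54 to 0.88). The ratio of Itgav was below that of Itgb3 by 0.27 on the log2 scale, a difference of −0.27 with an interval from −0.48 to −0.07.

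Itgb8 stood apart by its low level. The gene (ENSMUSG00000025321.14, chr12:119158022-119238802, minus strand) held 10 peaks of at most 461 bp that covered 3.49% of its length, with a sum of 82.5 RPKM in the spleen and 57.9 RPKM in the large intestine. The log2 ratio was −0.55 (−1.06 to −0.05), and 6.13% of tested genes had a lower one. The spleen was higher in 8 of 10 peaks, but no single peak had an interval off 0. The first peak lay 38.2 kb from the start and segments 1 and 2 held none. Segment 5 had 0.916 RPKM in the spleen and 0.619 RPKM in the large intestine (−0.65, −1.27 to −0.02). The strongest peak had 10.3 and 6.14 RPKM (−0.74, −1.94 to 0.46). With the GC correction the ratio was −0.32 and its interval, from −0.81 to 0.17, held 0. The ratio of Itgav exceeded that of Itgb8 by 0.93 (0.41 to 1.45), so the alpha and the beta gene of this receptor leaned to opposite tissues.

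Itgal and Itgb2 encode the subunits of LFA-1, the leukocyte receptor for ICAM molecules that T cells use in arrest and in contacts with antigen-presenting cells. Both genes were marked over most of their length, 93.3% of Itgal and 84.0% of Itgb2. Itgal (ENSMUSG00000030830.18, chr7:127296260-127335138, plus strand) had 6 peaks with a sum of 165 RPKM in the spleen and 159 RPKM in the large intestine (log2 ratio −0.10, −0.26 to 0.07). Its longest peak, of 20346 bp, was the longest of any subunit, with 32.0 and 31.4 RPKM, and its strongest had 38.2 and 39.3 RPKM (−0.00, −0.22 to 0.22). The libraries were thus nearly equal in these peaks. The interval of the gene lay below 0 with the GC correction (−0.21, −0.38 to −0.04) and with peaks weighted by length (−0.09, −0.15 to −0.02). The exception was a peak of 235 bp 0.856 kb from the start, with 16.4 RPKM in the spleen and 4.38 RPKM in the large intestine (−1.84, −3.35 to −0.32).

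Itgb2 (ENSMUSG00000000290.13, chr10:77530252-77565708, plus strand) had 13 peaks with a sum of 250 RPKM in the spleen and 223 RPKM in the large intestine (log2 ratio −0.21, −0.33 to −0.08). The libraries differed most toward the start. In segment 1 the level was 4.80 RPKM in the spleen and 2.22 RPKM in the large intestine (−1.19, −1.65 to −0.73), and in segment 2 it was 15.7 and 14.2 RPKM (−0.23, −0.44 to −0.01). In segments 3, 4 and 5 the log2 ratio lay between −0.04 and 0.02, with levels from 32.8 to 36.1 RPKM in the spleen. Both the strongest peak, with 38.8 and 40.7 RPKM (0.02, −0.10 to 0.14), and the longest, with 35.6 and 39.0 RPKM (0.08, −0.03 to 0.20), were about equal in the libraries. When peaks were weighted by their length the ratio of Itgb2 was −0.07 (−0.14 to 0.01). The ratios of Itgal and Itgb2 differed by 0.11, with an interval from −0.10 to 0.32.

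Levels can be compared between genes only per length, so the signal of each gene was also averaged over its body. Bases outside peaks counted as 0. These averages therefore also reflect the share of the body that peaks covered, from 3.49% in Itgb8 to 93.3% in Itgal. Itgal was highest, with 29.0 RPKM in the spleen and 28.9 RPKM in the large intestine, followed by Itgb2 (24.9 and 25.3 RPKM) and Itgb7 (19.9 in both). These 3 kept their order in both libraries. In the spleen Itga4 (11.3 RPKM) and Itgav (8.89 RPKM) came next, and in the large intestine they changed places, with 11.6 RPKM for Itgav and 10.9 RPKM for Itga4. Itgb1, Itgb3 and Itga6 followed in the spleen with 5.31, 4.97 and 4.76 RPKM, neighbours that did not differ beyond their counting intervals. The annotated body of Itga6, of 113 kb, begins at position 71745616, but its principal transcript begins at 71786978. The stretch between held no peak and counted as 0, which lowers the level and the rank of Itga6 in both libraries. No average over its principal transcript was taken. In the large intestine the same genes were apart, at 2.73, 8.40 and 3.14 RPKM. Itgae had 3.74 RPKM in the spleen, below all but Itgb8, and 7.13 RPKM in the large intestine, above Itga6 and Itgb1. Itgb8 was lowest in both, with 0.293 and 0.202 RPKM.

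**Figure D3:**
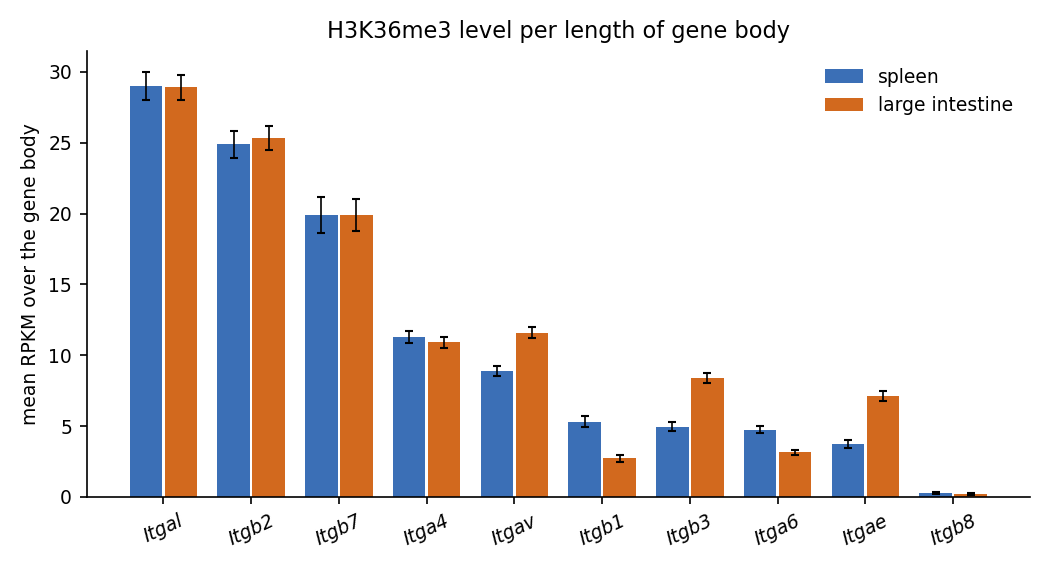
H3K36me3 level of 10 integrin subunit genes in splenic and intestinal Treg cells, as mean RPKM over the gene body as deposited. Bars are single libraries and error bars are approximate 95% counting intervals. Itgal, Itgb2 and Itgb7 are highest in both, and Itgae goes from 3.74 RPKM in the spleen to 7.13 RPKM in the large intestine. The body of Itga6 includes a long stretch without peaks before its principal transcript.

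The remaining integrin genes of the mouse were looked at as a list of 16 subunits known mainly from other cells. Of these, 11 had no peak, among them Itgam and Itgax of myeloid cells and Itga2b of platelets. For comparison, 10037 of all 21951 protein-coding genes had a peak. All 5 with a peak had a ratio above 0, 3 of them with an interval above 0 (against 18.5% of all tested genes) and 2 over 2-fold higher in the large intestine (against 3.21%), and their median log2 ratio was 0.91. The lowest of the 5, at 0.21, was Itga5; with the GC correction the lowest ratio of the list was −0.05 and with the strongest peak alone −0.10, and the median was 0.65 and 0.59, respectively. With the closest transcript start the median was 0.34. Itga2, a collagen receptor subunit, had 6.50 RPKM in the spleen and 21.4 RPKM in the large intestine over 2 peaks (1.60, 0.51 to 2.69). Itga3, a laminin receptor subunit, had 66.9 and 155 RPKM over 12 peaks (1.16, 0.79 to 1.54). Itgb5, a further partner of Itgav, had 22.8 and 44.7 RPKM over 4 peaks (0.91, 0.09 to 1.73). These genes are also used by epithelial cells, whose marker list was likewise higher in the large intestine, at 93.8 against 55.1 RPKM. In that list Epcam (25.3 and 47.2 RPKM), Vil1 (4.63 and 12.6 RPKM) and Lgals4 (25.2 and 34.0 RPKM) had peaks. Krt8, Krt18 and Krt20 had none in either library. The part of epithelial cells in the ratios of these integrin genes was not tested.

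The proteins that switch integrins on and tie them to the cytoskeleton had ratios in a narrower range. Of 32 such genes 25 had a peak, against 10037 of all 21951 protein-coding genes. The filter on low signal was passed by 24, 4 of them with an interval above 0 (18.5% of all tested genes had one) and 7 below (15.9%). None was past 2-fold in either direction (3.21% and 1.81%). Their median log2 ratio was −0.09 and their range −0.68 to 0.30. The highest ratios with an interval off 0 were those of Ptk2b, the focal adhesion kinase relative Pyk2 (462 and 587 RPKM, 0.30), of Sipa1, an inhibitor of Rap1 (64.8 and 80.4 RPKM, 0.26), and of Parvg, a parvin of leukocytes (65.2 and 80.8 RPKM, 0.26). The lowest were those of Rasgrp2, an exchange factor that activates Rap1 (66.2 and 42.4 RPKM, −0.68), of Krit1, a Rap1 effector (230 and 182 RPKM, −0.39), and of Lims1, the adaptor PINCH of the integrin-linked kinase (276 and 219 RPKM, −0.38).

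Among 22 genes for integrin ligands and partners of latent TGF-beta, 9 had a peak in these Treg cells and 8 passed the filter, with a median log2 ratio of 0.03. Of the 8 genes, 2 had an interval above 0 and 3 below, against 18.5% and 15.9% of all tested genes, and the list's median changed sign under several alternatives, from −0.26 to 0.39. An interval above 0 was found for Tgfb1, the TGF-beta gene itself (65.6 and 87.8 RPKM, 0.37), and for Icam1, a ligand of LFA-1 (39.1 and 50.5 RPKM, 0.32). It lay below 0 for Icam2, a further ligand of LFA-1 (112 and 76.7 RPKM, −0.59), for Lrrc32, the GARP protein that holds latent TGF-beta on the Treg cell surface (63.2 and 48.1 RPKM, −0.44), and for Nrros, a related anchor known from myeloid cells (128 and 110 RPKM, −0.26). Ligands of endothelium, epithelium and matrix, such as Madcam1, Vcam1, Cdh1, Fn1 and Vtn, were among the 13 of 22 genes without a peak. A peak was also absent from many genes in general, since 10037 of 21951 protein-coding genes had one.

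**Figure D4:**
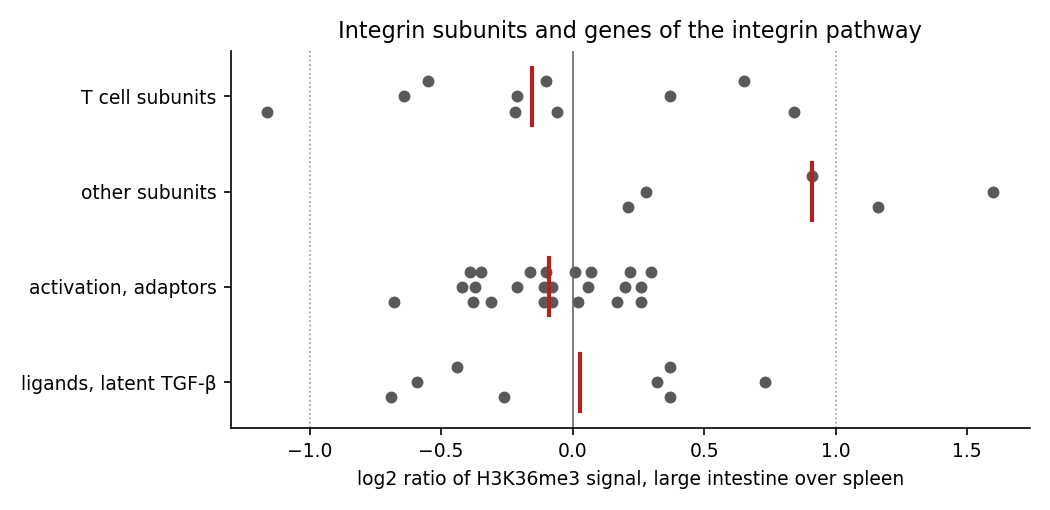
Log2 ratio of H3K36me3 signal, large intestine over spleen, for the T cell integrin subunits and 3 lists of integrin genes. Each point is a gene with at least 20 RPKM over both libraries, red lines are list medians (−0.15, 0.91, −0.09 and 0.03 from top to bottom) and dotted lines mark 2-fold. The T cell subunits run from −1.16 to 0.84, a wider range than the activation and adaptor genes.

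The study also used lists of genes expressed more in colonic, splenic, ST2+ or RORgt+ Treg cells, which rest on expression in other samples. Itgav is on the colonic list and Itgb1 on the splenic list, each the tissue in which its H3K36me3 was the higher. The other subunits are on neither list, including Itgae, which had the highest ratio (0.84). The share of all genes on each list was not computed. Over genes that differ in expression between the tissues, the paper reported a positive correlation of H3K36me3 with mRNA. Itgae and Itgav are on the ST2+ list, and none of the 10 subunits is on the RORgt+ list. Itgb3 and Itga6, with log2 ratios of 0.65 and −0.64, are on none of the 4 lists.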

How the data were processed

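Treg cells of 2 tissues were profiled for H3K36me3 with 1 pooled library each, sequenced as single-end reads of 75 nt. The authors aligned reads to mm10, called peaks with MACS2 at a p-value of 0.01 against the input, merged the peaks of both tissues with bedtools, and averaged bamCoverage tracks over each merged peak; Bowtie2 is named in the submitters' processing notes. The deposited values are therefore RPKM (mean coverage per peak), although the table is labelled as raw counts. In 100% of peaks with a low product, value times length was a whole number of steps (tolerance 0.02) of 1.69 RPKM for the spleen and 1.31 for the large intestine, and from these steps and coverage bins of 20 bp the depth was inferred.

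Peaks were assigned by midpoint to GENCODE M21 gene bodies and summed per gene. Log2 ratios used a pseudocount of 0.5 RPKM, which understates changes of low genes, and were shifted by 0.046, the log2 ratio of the column totals; genes needed 20 RPKM over both libraries. The 95% intervals cover counting error only and treat reads as independent; the ratio was checked on simulated data. With 1 library per group no test was made. The members and lists were chosen with earlier results of these data known. Named genes were the members, up to 3 genes per direction and list with the largest ratio and an interval off 0, and each member's strongest peak and, with at least 5 peaks of 1 kb or more, its longest; other peaks were named after their values were seen. A marker gene of the fixed lists is not reported here. Sequences came from the mm10 genome. Alternatives changed the scaling, pseudocount, filter, peak weights, peak choice, gene assignment, GC content and bases per read. Python 3.11.15, pandas 2.3.3, numpy 2.4.6 and matplotlib 3.10.9 were used.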

Additional observations from a re-analysis of the deposited data

How the results depend on the processing

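Of 104 summary values recomputed under the alternatives, 100 stayed within the bounds set for them (for a list's median, the spread over its genes, which is wide in short lists) and 4 moved. The median of the other subunits ranged from 0.34 (nearest transcript start) to 1.16 (at least 200 RPKM, 1 gene), that of the ligands from −0.26 to 0.39, that of the adaptors from −0.13 to −0.02 and that of the 10 subunits from −0.24 to 0.02. With the strongest peak of each gene alone, 2 subunits had an interval below 0 and 1, Itgae, was over 2-fold higher in the large intestine. With peaks of at least 1 kb alone, and with the GC correction, 0 subunits were over 2-fold higher in the spleen, since Itgb1 was then at −0.95 and −0.87. With the GC correction 5 subunits again had an interval below 0, but Itga4 and Itgb8 were no longer among them and Itgb7 (−0.18) and Itgal (−0.21) were. Of 127 values of single subunits, 115 stayed within the counting interval of the reported ratio, 9 moved and 3 reversed: Itga4 was at 0.01 and Itgb2 at 0.02 with the strongest peak alone, and Itga4 was at 0.11 with the GC correction. Where no cause follows from the alternative's construction, the cause was not tested. Itgae ranged from 0.29 (nearest transcript start) to 1.33, Itgav from 0.16 to 0.48, Itgb3 from 0.55 to 0.79, Itgb1 from −1.71 to −0.87, Itga6 from −0.81 to −0.58 and Itgb8 from −0.74 to −0.32. Itgb8 gave no value with peaks of at least 1 kb or at least 200 RPKM, nor Itgb7 at 200 RPKM. No paired analysis was possible because each group has 1 library and no test. Depth limits short peaks most: 30 of 133 peaks under 1 kb had an interval off 0, against 38 of 87 longer ones.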

Other observations

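The tested protein-coding genes nearest to each subunit on either side, chosen after the subunits' values were seen, had log2 ratios from −1.50 to 0.59 with a median of −0.17 over 19 genes. Nrp1, which encodes neuropilin 1, a surface protein of thymus-derived Treg cells, lies 182 kb before Itgb1 and had 974 RPKM in the spleen and 355 RPKM in the large intestine (−1.50, −1.64 to −1.36), a lower ratio than that of Itgb1. Both neighbours of Itga6 also had more signal in the spleen, Hat1 with 138 and 81.7 RPKM (−0.80, −1.20 to −0.39) at a distance of 304 kb and Pdk1 with 279 and 177 RPKM (−0.71, −0.93 to −0.48) at 14.8 kb. The neighbours of Itgae and Itgb3 did not share the direction of those genes with an interval above 0: Ncbp3, 1.27 kb before Itgae, had 237 and 218 RPKM (−0.17, −0.32 to −0.02), P2rx5 after it had 26.1 and 34.8 RPKM (0.36, −0.27 to 0.99), Cdc27 before Itgb3 had 222 and 194 RPKM (−0.23, −0.42 to −0.05) and Mettl2 after it had 64.0 and 61.5 RPKM (−0.10, −0.41 to 0.21). Calcrl, 524 kb past the 3' end of Itgav and with 4 peaks, had 37.6 and 16.7 RPKM (−1.20, −2.00 to −0.39) while Itgav itself was higher in the large intestine. Rarg, next to the start of Itgb7, had 146 and 90.9 RPKM (−0.73, −1.02 to −0.44) while Itgb7 was at −0.06. The exception among the 19 genes with an interval above 0 was Zfp747, 37.4 kb after Itgal, with 19.1 and 30.0 RPKM (0.59, 0.07 to 1.12).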
